A study of Rattus norvegicus with 20 samples.

Results

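Adipose tissue of rats given 30% less food for 1 week was set against adipose tissue of control rats of the same week, which used 4 of the 20 chips of the series: 2 of the 30% CR (calorie restriction) group and 2 of the control group. The animals were male rats of the outbred Wistar strain, 6 weeks of age at the start, caged singly on the AIN-93G powdered diet. Control rats were given the amount that unrestricted rats of that week had been recorded to eat, and the 30% CR rats that amount less 30%. All were fasted for 16 h before the visceral white fat was taken under diethyl ether, so the fast was shared by both groups. RNA of the 5 rats of a group was pooled, and each pool was hybridised to 2 Affymetrix Rat Expression Set 230 chips. Each group was therefore 1 pool, its chips were technical repeats, and the spread between single rats was not measured. The hour at which tissue was taken is not given in the sources used here. The other pools of the series, 5%, 10% and 20% CR at 1 week and all 5 groups at 1 month, came from other rats and were used only to judge this comparison. The rats of the 1-month groups were older when tissue was taken.

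White adipose tissue stores triglyceride after meals and releases fatty acids and glycerol between meals. When food is short, insulin falls and glucocorticoids rise, lipolysis speeds up, and fat cells burn more fatty acid themselves and make less glucose-derived fat. Adipocytes also run a circadian clock, in which the CLOCK and BMAL1 proteins switch on the Per, Cry and Nr1d genes and the PAR-type transcription factor genes Dbp, Tef and Hlf, and feeding times help to set it. Fat tissue further holds blood vessels, macrophages and, in lymph nodes embedded in it, lymphocytes. Visceral fat lies close to the pancreas.

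The values were MAS5 signals, a brightness per probe set on a linear scale. Differences are log2 differences, 30% CR minus control, taken between chips of the same number and averaged over the 2 pairs. A probe set was called higher or lower where its 2 pairs shared a sign and the pools differed by 1.5-fold or more, which is a rule of size, not a test. The test was a limma contrast over the 10 pools of the series with Benjamini-Hochberg adjustment over 9520 probe sets. Its spread came from the 8 other pools, which were fitted to a line in restriction percent within each duration. Departures from that line counted as spread. The p-values therefore mix differences between pools of rats with responses to restriction that are not straight. They also assume that these 2 pools varied like the rest.

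The 2 pools gave stable readings. The duplicate chips correlated at 0.979 for 30% CR and 0.974 for control across the tested probe sets, and the difference of chip pair 1 correlated with that of chip pair 2 at 0.779, which describes features, not replicate animals. Both pairs had one sign in 7066 of 9520 probe sets (74.2%). Overall scale differed between chips 1 and chips 2 of that week, with trimmed means near 77.2 and 110.9, and pairing by number removed it.

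Of the 9520 probe sets, 893 (9.38%) were called higher and 1120 (11.8%) lower. At 2-fold the counts were 230 and 412. Over the 7112 named genes, 680 (9.56%) were higher and 827 (11.6%) lower. These 2 shares are the background for the counts of tested genes in each list below. The split depended on scaling: higher calls were 44.4% of all calls on the deposited scale and 55.2% after quantile normalization. By limma, 7 probe sets (0.0735%) passed an adjusted p of 0.05, 3 higher and 4 lower, and 5 of them (0.0703%) were among those that stand for the 7112 genes, while 1636 (17.2%) had an unadjusted p under 0.05.

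**Figure D1:**
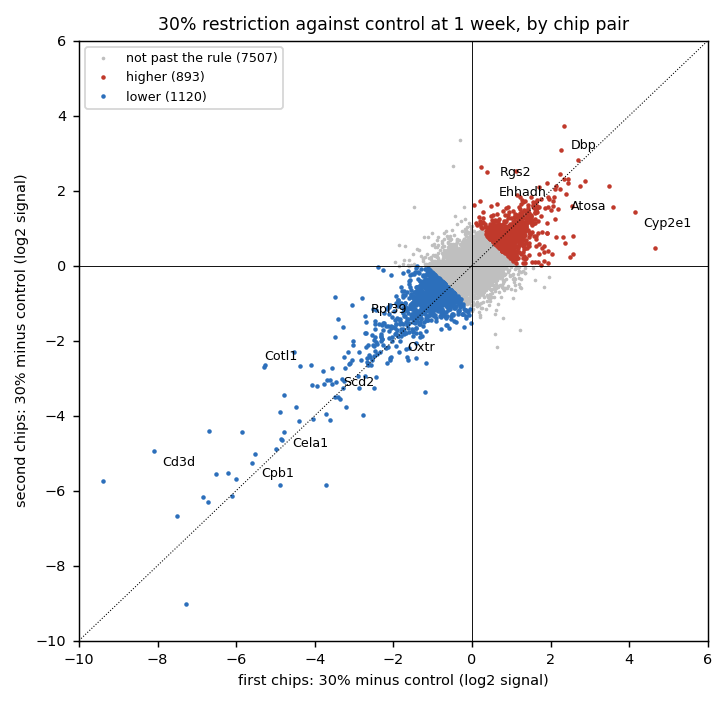
Log2 difference, 30% CR minus control at 1 week, of chip pair 1 (horizontal) against chip pair 2 (vertical), one point per probe set, with 893 called higher in red, 1120 called lower in blue and the other 7507 in grey. The points lie along the dotted line of equal differences (correlation 0.779), and the lower calls reach much larger sizes than the higher calls.

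Pancreatic transcripts were unequal between the 2 pools and were set aside first. Pnlip, pancreatic lipase, gave 5665 and 6540 on the control chips and 88.7 and 126.8 on the 30% chips. Prss1, trypsin, gave 6018 and 6379 against 286.8 and 363.5. Both pools carried this RNA, the control pool by far the most: over 34 exocrine pancreas genes on the array the mean log2 signal was 8.84 in the control pool, 4.33 in the 30% pool and between 2.15 and 2.68 in the other 8 pools. Of these 34 genes, 31 were called lower and 0 higher, with no filter on low values. Without that filter 2819 of all 15866 probe sets were called lower and 1700 higher. The filter kept 5 of the 34 genes, of which 4 were called lower. Some of the 31 were dim in both pools, such as Klk1, at log2 signals of 3.41 in control and 2.25 in the 30% pool. Cpb1 and Cela1, pancreatic carboxypeptidase B and elastase, were among the 4 probe sets that were lower by limma, with Cela1 at an adjusted p of 0.00787. Another was a probe set with no gene name here, at 5567 and 6248 on the control chips against 60.9 and 132. Cpb1 and the unnamed probe set reached the filter signal of 22.8 only through these 2 pools, since the other 8 lay at log2 signals of 2.89 to 4.55 and 3.12 to 4.28. Their p-values rest on the spread of dim readings and are not used. Against the mean of the 5%, 10% and 20% pools the sign turned, with Cpb1 at 3.69 and Prss1 at 4.72. Pnlip and Prss1 were also below the filter signal in the other 8 pools, at log2 signals of 2.80 to 4.47 and 2.61 to 4.11. The turned differences are thus taken against dim readings, and their sizes are not exact. Ins1, insulin of the islet, was also highest in the control pool, at a log2 signal of 7.05 against 4.34 in the 30% pool and 4.56 to 4.73 in the other pools of that week. Among all 1120 lower calls, 6 had the order of the pancreatic transcripts, control highest and 30% next of all 10 pools. Over all 9520 tested probe sets 51 had it, a similar share. Ins1 did not have this order, so the count does not say how many lower calls are pancreatic.

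The control pool stood apart from the 3 milder groups as well. It was the lowest of the 5 pools of that week in 838 (93.8%) of the higher calls and the highest in 981 (87.6%) of the lower calls, though choosing on the difference favours this. Over all tested probe sets it was the lowest in 31.9% and the highest in 29.3%. When the mean of the 5%, 10% and 20% pools took the place of control, 833 (93.3%) of the higher calls kept their sign and 75 (8.4%) kept a 1.5-fold difference. Of the lower calls, 1067 (95.3%) kept their sign and 340 (30.4%) kept 1.5-fold. Both comparisons used the same 30% chips, on which the calls were chosen, and this favours a kept sign and a smaller difference. The same holds where lists below are set against the milder pools. Most called differences were smaller against milder restriction than against control, and this second reference is given beside the results. By the same fold rule it called 1.12% of the 7112 genes higher and 4.22% lower.

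Ggh, gamma-glutamyl hydrolase of folate metabolism, was one such gene, named after its values were seen. Its signals were 692.3 and 1007 on the control chips and 135.8 and 204.3 on the 30% chips, a log2 difference of -2.33 (SE 0.20, limma adjusted p = 0.00787). The 4 restricted pools lay together at log2 signals of 7.37 to 7.50 against 9.71 in control. All 5 pools at 1 month lay at 7.44 to 7.79, with the unrestricted control of that time at 7.79. The control pool of 1 week, which also held the most pancreatic RNA, thus stood alone, and the cause was not tested. The difference of the 30% pool from the mean of the 3 milder pools was -0.08.

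The highest-ranked genes were those with the smallest p among fold-called genes in which the 30% pool was the highest of the 5 pools of that week. Atosa led them and rose: 23.9 and 33.8 on the control chips, 112.4 and 140.6 on the 30% chips, 4.42-fold (log2 difference 2.15, SE 0.21, limma adjusted p = 0.0194). Its log2 signal climbed over the 5 pools from 4.83 through 5.26, 5.65 and 6.15 to 6.97. Ifrd1, a transcriptional coregulator, rose from 98.8 and 162.3 to 412 and 540.2, 3.73-fold (SE 0.22 on the log2 scale, limma adjusted p = 0.0388). Rgs2, which shortens G protein signals by speeding GTP hydrolysis, rose in 1 of its 2 probe sets, at 98.1 and 193.5 against 658.8 and 849.1 (log2 difference 2.44, SE 0.30, limma adjusted p = 0.0493). The brighter Rgs2 probe set gave 222.3 and 289.2 against 829.3 and 1337, 4.15-fold, with an adjusted p of 0.0672. These calls were not stable: of 3 higher probe sets, 1 remained under median centring, 1 without any single one of the 5%, 10% or 20% pools of 1 week, and 0 without the 5% or the 20% pool of 1 month. The limma adjusted p of Atosa was 0.0222 under median centring and 0.0529 to 0.0617 without one of those 5 pools. That of Ifrd1 was 0.058 under median centring and 0.0946 to 0.115 without one of them, and that of the Rgs2 probe set 0.054, and 0.10 and 0.131 without the 5% and 20% pools of 1 month. That these 3 genes lay above the milder pools was fixed by the way they were chosen. The distance from the mean of those pools was 1.29 for Atosa, 1.10 for Ifrd1 and 1.28 for the brighter Rgs2 probe set on the log2 scale.

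The remaining 12 of the 15 highest-ranked genes had adjusted p-values of 0.063 to 0.0983 and did not pass. Tsc22d3, a glucocorticoid-induced leucine zipper protein, gave 179.9 and 281.6 in control and 562.7 and 759.7 in 30% CR, 2.90-fold. Nupr1, a stress-induced nuclear protein, was 3.0-fold higher, from 109.9 and 140.1 to 322.4 and 430.3. Nupr1 stood out among these 15 genes in one respect. Its log2 signal was 6.57 to 7.56 in the milder pools and 6.96 in control. The 30% pool, at 8.54, was thus 1.53 above the mean of the former and 1.59 above the latter.

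Cbr1, carbonyl reductase, gave 177.5 and 254.1 against 682.1 and 909 (3.71-fold). Cyp2e1, a cytochrome P450 that oxidises ethanol and ketones, was at 2.5 and 18.9 on the control chips, below the signal of 22.8 that set the filter, and at 44 and 50.8 on the 30% chips. Its 6.88-fold difference therefore rests on dim control readings, and its pairs differed, at 4.14 and 1.43 on the log2 scale. Aldh9a1, an aldehyde dehydrogenase that serves carnitine synthesis, was 2.48-fold higher, Mgst2, a microsomal glutathione transferase, 1.99-fold, and Nadk, the kinase that makes NADP, 2.02-fold. Net1, an exchange factor for RhoA, was 2.70-fold higher, Ung, which removes uracil from DNA, 2.68-fold, Mcoln1, a lysosomal cation channel, 2.38-fold, and Cytl1, a small secreted protein, 2.25-fold. Pdgfrl, the last, was again dim in control, at 4.7 and 27.9 against 56.7 and 82.9.

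Among genes with the 30% pool lowest of the 5, pancreatic and islet genes set aside, the 15 of smallest p had adjusted p-values from 0.0672 to 0.176, and none passed. Oxtr, the oxytocin receptor, gave 206 and 305.1 in control and 56 and 82.5 in 30% CR, 3.69-fold lower (log2 difference -1.88, SE 0.31, limma adjusted p = 0.0996). Its log2 signal declined in order over the 5 pools, 7.97, 7.55, 7.13, 6.36 and 6.09, and the 2 chip pairs differed by under 0.01. Tfrc, the transferrin receptor for iron uptake, was 2.57-fold lower, from 122.5 and 174 to 40.7 and 79.1. Plvap, the diaphragm protein of fenestrated capillaries, was 2.23-fold lower, from 178.4 and 234.5 to 75.9 and 110.7. Lpar1, a receptor for lysophosphatidic acid, was 2.11-fold lower.

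Others in this group act in RNA and ribosome work. Srrt, an RNA-processing factor, was 2.73-fold lower, and Nle1, needed for assembly of the large ribosomal subunit, 2.22-fold. Rpl39, a protein of that subunit, gave 80.4 and 76.5 against 11.5 and 41.8. Its pairs differed by -2.81 and -0.87, so the size of the difference is poorly set, and ribosomal protein genes have near-identical copies that a probe set may read together. The remaining genes were Basp1, a membrane-bound signal protein (2.63-fold lower), Dclk1, a microtubule-binding kinase (2.06-fold), Efhd1, a calcium-binding protein of mitochondria (2.12-fold), Vstm4 (2.19-fold), Wdr6 (2.21-fold), Tmem254 (1.71-fold), Ss18, a subunit of the SWI/SNF chromatin remodeller (1.69-fold), and Msmo1, a sterol demethylation enzyme (2.65-fold).

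**Figure D2:**
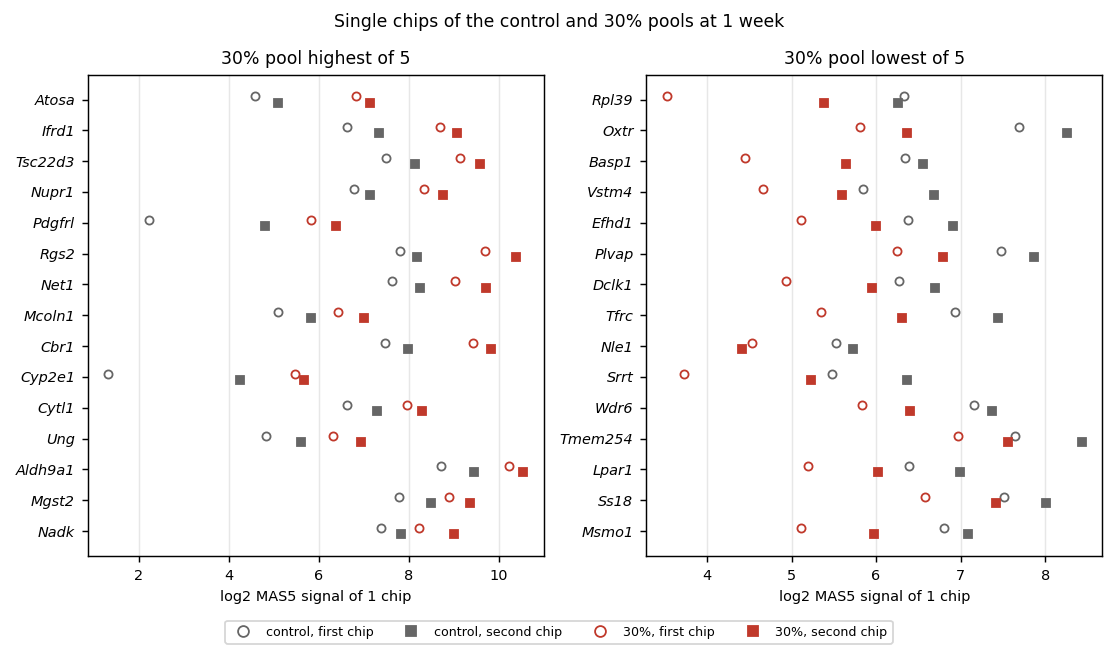
Log2 MAS5 signal on each of the 4 chips for the 15 genes of smallest p with the 30% pool highest (left) or lowest (right) of the 5 pools at 1 week, open circles for chip 1, filled squares for chip 2, grey for control and red for 30% CR. Chips of the same number were compared, and Atosa, at 23.9 and 33.8 against 112.4 and 140.6, separates on both.

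The circadian list gave the most uniform group of higher genes. Of 11 clock genes, the repressors and the output factors, 9 were called higher and 0 lower, against 9.56% and 11.6% of all genes, with a median log2 difference of 1.44 against 0.00 over all genes. By limma 6 of the 11 had an unadjusted p under 0.05, against 17.9% of all genes, and none passed after adjustment. Promoters of 10 of the 11 genes were found in the RefSeq tables (build GRCr8), 11 in all, since Nr1d1 has 2 starts. Among the 250 bases before these starts, the E-box CACGTG, the site read by CLOCK and BMAL1, lay in 4 of the 11 promoters (Tef, Bhlhe40, Bhlhe41 and 1 of the 2 of Nr1d1, shown here), and it lies in 5.59% of all 33469 promoters of that length. The D-box TTATGTAA, the site read by DBP, TEF and HLF, lay in Per2 and in 0.83% of all promoters. Both words were sought on both strands and share no position. The following promoters are shown because they hold these words, an E-box 198 bases before the start of Tef and 191 bases before that start of Nr1d1, and a D-box 192 bases before that of Per2, printed in capitals. They lie at chr7:115206577-115206826 (plus strand), chr10:84229455-84229704 (minus strand) and chr9:99496994-99497243 (minus strand).
Tef: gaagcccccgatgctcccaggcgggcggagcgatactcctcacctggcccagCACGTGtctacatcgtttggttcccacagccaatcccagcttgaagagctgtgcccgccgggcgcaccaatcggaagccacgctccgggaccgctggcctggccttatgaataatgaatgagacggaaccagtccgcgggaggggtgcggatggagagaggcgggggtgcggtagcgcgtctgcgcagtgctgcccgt
Nr1d1: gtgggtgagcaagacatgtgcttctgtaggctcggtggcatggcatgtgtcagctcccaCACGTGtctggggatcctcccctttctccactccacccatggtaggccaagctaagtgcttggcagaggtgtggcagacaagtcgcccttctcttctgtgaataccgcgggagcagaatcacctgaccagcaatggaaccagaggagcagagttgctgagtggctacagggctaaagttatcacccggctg
Per2: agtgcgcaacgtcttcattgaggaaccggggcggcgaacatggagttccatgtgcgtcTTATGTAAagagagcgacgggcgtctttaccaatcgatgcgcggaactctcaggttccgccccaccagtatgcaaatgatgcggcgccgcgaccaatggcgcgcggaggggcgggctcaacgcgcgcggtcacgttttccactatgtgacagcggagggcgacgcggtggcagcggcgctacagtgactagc

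These matches describe letters only; the window before Dbp, the gene with the largest difference of the list, held neither word. Dbp, a PAR-type transcription factor, gave 31.5 and 41.1 on the control chips and 204.9 and 291.1 on the 30% chips, 6.79-fold higher (log2 difference 2.76, SE 1.23, limma adjusted p = 0.299). Its relatives Tef and Hlf gave 7.8 and 19.5 against 35.4 and 55.1 (3.58-fold), and 23.4 and 33.9 against 71.6 and 100.7 (3.02-fold). Tef was thus below the filter signal of 22.8 on both control chips.

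The period gene Per2, which feeds back on CLOCK and BMAL1, was 3.10-fold higher, from 31.2 and 43.2 to 102.4 and 126.7. Usp2, a deubiquitinase under clock control, was 4.40-fold higher, from 13.3 and 17.3 to 58.6 and 75.9 (SE 0.46 on the log2 scale, limma adjusted p = 0.144). Its control readings were under the filter signal too, and with log2(signal + 16) its difference was 1.41 in place of 2.14, as that of Tef was 1.06 in place of 1.84. The orphan receptor gene Nr1d2 gave 68.4 and 97.9 against 162.5 and 303.4, a log2 difference of 1.44. Its paralog Nr1d1 differed by 0.71, and Per1 and Cry2, further repressors, by 0.84 and 0.86. Bhlhe40 and Bhlhe41, at 0.55 and 0.58, stayed under 1.5-fold. Clock, the only gene tested of the positive arm, differed by -0.34, from 64.9 and 121.2 to 56.8 and 86.6.

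The courses over the 5 pools differed between clock genes, here described for 5 of the 11. Dbp stood at a log2 signal of 5.17 in control and already at 7.81 in 5% CR, with 7.98, 8.16 and 7.93 in 10%, 20% and 30% CR, so that the 30% pool differed from the mean of the milder pools by -0.049. Per2, Usp2 and Hlf climbed through all pools, Per2 from 5.20 through 5.79, 5.99 and 6.39 to 6.83. Tef stood at 3.62 in control, 4.84, 5.05 and 5.06 in the milder pools and 5.47 at 30% CR. Against the milder pools 3 of the 11 genes were called higher and 1 lower.

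The glucocorticoid and fasting list had 11 of 19 genes called higher and 1 lower, with a median of 0.72, and 11 of the 19 had an unadjusted p under 0.05. Glul, glutamine synthetase, was the brightest of those named here, at 790.6 and 934.9 in control against 2459 and 3012 in 30% CR, 3.17-fold (SE 0.32 on the log2 scale, limma adjusted p = 0.128). Pdk4 and Pdk2, kinases that shut off pyruvate dehydrogenase, were 2.92-fold and 2.63-fold higher, Pdk4 from 115.1 and 116.2 to 294.3 and 386.2. Fkbp5, a co-chaperone of the glucocorticoid receptor, was 2.60-fold higher, from 90.5 and 155.9 to 261.3 and 364.4. The gene lower in this list was Cdkn1a, an inhibitor of the cell cycle, at -0.91.

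Against the milder pools 6 of 19 genes of this list were called higher and 0 lower, beside 1.12% and 4.22% of all genes. Pdk4 stood at log2 signals of 6.85 in control and 6.68, 7.11 and 7.99 in the milder pools before 8.40 in the 30% pool. Fkbp5 stood at 6.89, 7.14, 6.94, 7.80 and 8.27. Nr3c1, the glucocorticoid receptor itself, differed by 0.02, Sgk1 by -0.08 and Angptl4 by 0.12, all near 0.

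Fat oxidation genes were also above control, at a smaller size. Of 20 genes of mitochondrial beta-oxidation, 11 were called higher and 0 lower (median 0.61, 13 of 20 at an unadjusted p under 0.05, none adjusted). Cpt1b, the muscle-type enzyme that lets fatty acids into mitochondria, gave 63.6 and 90.5 against 143.9 and 225.7 (2.38-fold). Its partner Cpt2 was 1.90-fold higher, and Acaa2, the last thiolase step, went from 640.7 and 1172 to 1398 and 2114 (1.98-fold). The liver-type Cpt1a differed by -0.01. Etfb, which passes the electrons on, was 1.83-fold higher, and Eci1, needed for unsaturated fatty acids, 1.79-fold. None of the 20 was called against the mean of the milder pools, where the median was 0.22, but the 30% pool was the highest of the 5 in 16 of the 20, against 23.1% of all genes.

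The peroxisomal list held a larger single difference. Ehhadh, the bifunctional enzyme of peroxisomal beta-oxidation, was 5.05-fold higher, from 22.4 and 34.3 to 105.6 and 185.3 (log2 difference 2.34, SE 0.50, limma adjusted p = 0.141). It climbed through the 5 pools, from a log2 signal of 4.79 through 5.99, 6.39 and 6.84 to 7.13. In all 4 of 12 genes of this list were called higher and 0 lower, among them Ech1 (2.10-fold), Decr2 (1.93-fold) and Pecr (1.56-fold).

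Downstream mitochondrial lists lay mostly above control but seldom by 1.5-fold. In the tricarboxylic acid cycle 19 of 20 genes were above control and 3 called, near the 9.56% of all genes (median 0.46), with Pc, pyruvate carboxylase, at 2.01-fold and the succinate dehydrogenase genes Sdha and Sdhb at 1.54-fold and 1.5-fold. In the respiratory chain and ATP synthase 41 of 45 were above control and 1, Ndufs1 of complex I (1.51-fold), was called, fewer than the 9.56% of all genes (median 0.26). Breakdown of branched-chain amino acids had 7 of 19 called higher and 1 lower (median 0.50). Bckdha, of the dehydrogenase complex that commits these amino acids, was 2.35-fold higher, and Mccc1 and Mccc2, the 2 chains of one leucine-breakdown enzyme, were 1.98-fold and 1.88-fold higher.

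Genes of fat storage and release were in part above control, where 9.56% of all genes were called higher and 11.6% lower. For triglyceride synthesis 5 of 13 genes were called higher and 1 lower (median 0.41). Dgat1, which adds the last fatty acid, gave 342.9 and 469.1 against 998 and 1417 (2.96-fold), and Lpin1, a phosphatidate phosphatase, 385.1 and 602.4 against 908.7 and 1600 (2.50-fold). Its paralog Lpin3 was 1.80-fold lower. For lipolysis and the lipid droplet 7 of 19 were higher and 1 lower (median 0.38). Pnpla2, the lipase that starts triglyceride breakdown, was 1.96-fold higher, from 1088 and 1608 to 2109 and 3190. Pde3b, by which insulin restrains lipolysis, was 2.89-fold higher, and G0s2, the inhibitor of the PNPLA2 lipase, was the lower one at -0.73. Uptake was mixed, with 3 of 17 higher and 1 lower: the transporter gene Slc27a1 was 2.58-fold higher and Slc27a4 1.61-fold lower.

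Fatty acid synthesis had no common direction, with 3 of 21 higher, 3 lower and a median of 0.06, near the 9.56% and 11.6% of all genes. Fasn, fatty acid synthase, differed by 0.15, Acly by -0.14, Scd by 0.06 and Thrsp by 0.01. The lower genes were far from these. Scd2, a stearoyl-CoA desaturase found widely outside adipocytes, was 8.87-fold lower, from 237 and 295.5 to 20.1 and 44.3. It declined through every pool, at log2 signals of 8.05, 7.31, 6.56, 5.87 and 4.90 (SE of the difference 1.19, limma adjusted p = 0.253). At 1 month Scd2 stood at 7.70, 7.44, 4.58, 5.44 and 6.24 from control to 30% CR, beside Cd3g of T cells at 8.95, 9.14, 3.88, 4.13 and 7.85, and the part of lymphocytes in its difference was not tested. Pnpla3 was 2.73-fold and Fads1 1.72-fold lower. Higher were Aacs, which turns ketone bodies into lipid precursors (2.12-fold), Srebf1 (1.63-fold) and Acss2 (0.66 on the log2 scale).

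Cholesterol synthesis was the metabolic list that lay mostly below control. Of 18 genes, 7 were called lower and 1 higher (median -0.42), and 4 stayed lower and 0 higher against the milder pools. Dhcr7, the last step to cholesterol, was 3.41-fold lower, from 205.4 and 334.2 to 62.4 and 94.8 (SE 0.45 on the log2 scale, limma adjusted p = 0.176). Idi1, which makes the isoprenoid unit, was 2.71-fold lower, from 101.9 and 152.1 to 40.8 and 51.6. Msmo1 gave 112 and 136.3 against 34.5 and 63.1, and Srebf2, the transcription factor of the pathway, was 2.09-fold lower. Fdft1, squalene synthase, went the other way, from 97.1 and 136.2 to 159.8 and 224.3, and Insig1 differed by 0.06. The pathway was not lower as a whole.

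Detoxification enzymes stood beside the fasting list in size. Of 20 genes of phase I and conjugation, 12 were called higher and 2 lower (median 0.85, 14 of 20 at an unadjusted p under 0.05, none adjusted), and 4 were also called higher and 0 lower against the milder pools. Fmo1, a flavin monooxygenase, gave 65.1 and 105 against 273.2 and 315.7, 3.55-fold (SE 0.33 on the log2 scale, limma adjusted p = 0.123). Ephx1, microsomal epoxide hydrolase, gave 82.4 and 162.5 against 299.7 and 469.3 (3.24-fold), and Adh1c, an alcohol dehydrogenase, was 2.87-fold higher. Por, the reductase that feeds all microsomal P450 enzymes, differed by 1.43 and Sult1a1, a sulfotransferase, by 0.99. The 2 lower genes were Cyp1b1 at -1.44 and Aldh1a1 at -0.65. Of 16 glutathione transferases 5 were higher and 0 lower, led by Gstt2 at 2.19-fold.

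**Figure D3:**
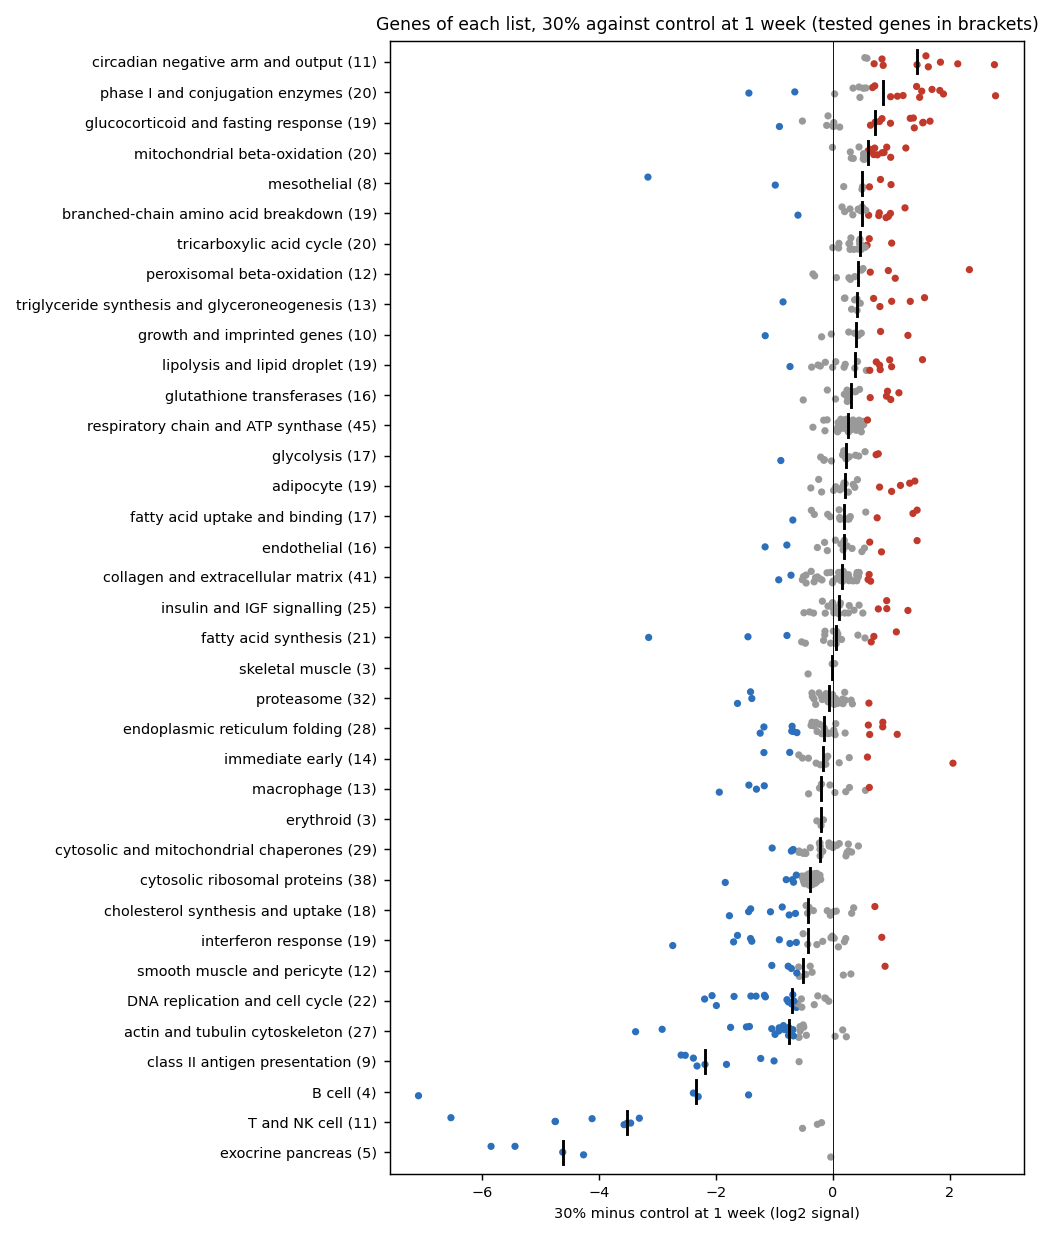
Log2 difference, 30% CR minus control at 1 week, of the tested genes (points) of each list, with the number tested in brackets, the median as a black bar, and genes called higher in red and lower in blue. Clock output has the highest median, 1.44, and exocrine pancreas and T and NK cell genes, at -4.62 and -3.52, the lowest.

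Lymphocyte and antigen-presentation genes were the most deeply lower lists of the tissue apart from pancreas. In bulk RNA, fewer cells of a type and less RNA per cell cannot be told apart. Of 11 T and NK cell genes 8 were called lower and 0 higher, with a median of -3.52 that was -2.56 with log2(signal + 16). The 30% readings of Cd3d, Cd3e, Cd3g, Cd5 and the B cell gene Cd79b lay under the filter signal of 22.8, so the sizes of their differences are not exact. Cd3d, a chain of the T cell receptor complex, gave 274.6 and 248.5 on the control chips and 1 and 8 on the 30% chips. Cd79b, of the B cell receptor, gave 271.1 and 254.5 against 1.5 and 2.5. These 30% readings lie far below the filter signal of 22.8, so the fold is not meaningful beyond the control signals being clearly present. Lck, the T cell kinase, went from 449.3 and 471.6 to 29.4 and 51.2, 11.9-fold lower.

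The mean log2 signal of the T and NK cell list was 7.47 in control, 6.90, 5.83 and 6.21 in the 5%, 10% and 20% pools and 4.29 in the 30% pool. The 4 B cell genes, all called lower, had means of 8.26, 7.31, 6.95, 6.81 and 4.95. The milder pools therefore varied too, and the SEs were large: that of Cd3d was 2.49 and its limma adjusted p 0.253. Against the milder pools, with the same 30% chips, 8 T and NK genes and 3 B cell genes were called lower. At 1 month Cd3g was lowest at 10% and 20% CR, with log2 signals of 3.88 and 4.13 against 8.95 in control and 7.85 in 30% CR.

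Class II antigen presentation was lower in 8 of 9 genes and higher in 0 (median -2.19), with the 30% pool the lowest of 5 in all 9, against 26.1% of all genes. Cd74, the invariant chain, is also counted in the B cell list above. It gave 2390 and 3074 against 450.8 and 598, 5.22-fold lower (SE 0.98 on the log2 scale, limma adjusted p = 0.272). The class II chain genes RT1-Bb and RT1-Da were 5.75-fold and 4.55-fold lower. All 3 were bright on all 4 chips, so their fold is measured on both sides. At 1 month Cd74 stood at log2 signals of 11.46, 11.23, 9.25, 9.17 and 10.57 from control to 30% CR. RT1-Da stood at 11.50, 11.27, 9.37, 9.14 and 10.79. Like Cd3g, both were lowest at 10% and 20% CR and not in order of restriction. Macrophage genes were divided: Lyz2, lysozyme, was 2.70-fold lower, Aif1 2.47-fold and Mpeg1 3.84-fold, while Cd68 differed by -0.05 and Csf1r by -0.19, and Clec10a, a lectin of macrophages and dendritic cells, was 1.54-fold higher.

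Interferon-response genes were lower in 8 of 19 and higher in 1 (median -0.43). Irf8, a transcription factor of immune cells, was 6.67-fold lower and Mx1, an antiviral GTPase, 3.24-fold. Of 32 proteasome genes 3 were called lower, a share below the 11.6% of all genes. They were Psmb8, Psmb9 and Psmb10, the immune-type subunits, at 3.10-fold, 2.65-fold and 2.61-fold lower. All 3 are also members of the interferon-response list and are counted among its lower genes. The proteasome list otherwise had a median of -0.06, and Psmd4 of the regulatory cap was 1.53-fold higher. The lymphocyte markers moved with these genes and with the class II genes, and their part in the result was not tested.

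Genes of the actin and tubulin skeleton were lower in 17 of 27 and higher in 0 (median -0.75), 14 of 27 at an unadjusted p under 0.05 and none adjusted. Largest were Cotl1 and Lcp1, actin-binding proteins abundant in blood cells: Cotl1 gave 233 and 278 against 13.7 and 44.1 (10.4-fold lower), and Lcp1 619 and 743.1 against 83.6 and 96.3 (7.56-fold). In all 24 of the 27 genes were below control, and the part of the lymphocyte markers in this was not tested. The tubulin genes Tubb2b and Tuba4a were 3.36-fold and 2.78-fold lower, Msn, which links actin to the membrane, 2.69-fold, and Pfn1, profilin, differed by -0.99. Vim, vimentin, at 0.23, and Actn4 at 0.04 were not below control. Against the milder pools 4 genes were called lower and 0 higher.

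DNA replication and cell cycle genes were lower in 14 of 22 and higher in 0 (median -0.70), with all 22 below control. Mcm3 and Mcm6, of the replication helicase, were 4.57-fold and 3.98-fold lower, Mcm3 from 72.3 and 90 to 15.9 and 19.6. Pclaf, a partner of the replication clamp, was 4.18-fold lower, and Ccnb2, a mitotic cyclin, 2.64-fold. The 30% readings of Mcm3, Mcm6 (8.8 and 19.8) and Pclaf (18.2 and 16.9) were all under the filter signal of 22.8, and with log2(signal + 16) the differences were -1.52, -1.21 and -1.42 in place of -2.19, -1.99 and -2.07. SEs of these 4 genes ran from 0.69 to 1.06 on the log2 scale. Over the pools of that week Mcm3 stood at 6.33, 5.62, 4.93, 4.87 and 4.14, beside T and NK cell means of 7.47, 6.90, 5.83, 6.21 and 4.29. The part of the lymphocyte markers in this result was not tested.

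Ribosomal protein genes lay below control in all 38 tested, 5 of them past 1.5-fold, near the 11.6% of all genes (median -0.39). Rpl35a gave 1937 and 2633 against 930.2 and 1815. The restricted pools lay close together, and the median against the milder pools was -0.05. Under quantile normalization the list's median was -0.15, so its size depended on the scaling. Chaperones had 4 of 29 lower and 0 higher, also near that share, with Hsph1 at 2.05-fold. The endoplasmic reticulum list went both ways, 5 of 28 higher and 6 lower: Creld2 and Sdf2l1, which act in protein folding, were 2.37-fold and 2.26-fold lower, while the stress genes Ddit3, Herpud1 and Trib3 were 2.14-fold, 1.81-fold and 1.81-fold higher.

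Fat cells themselves were well represented in both pools. Fabp4, the fatty acid carrier of adipocytes, gave 4029 and 5168 in control and 3884 and 6355 in 30% CR, and Cfd, adipsin, 4157 and 5205 against 4410 and 7098. Lep, leptin, gave 202.8 and 307.5 against 184 and 242.2 (log2 difference -0.24, limma adjusted p = 0.749). Of 19 adipocyte genes 5 were higher and 0 lower (median 0.21). Pparg, the master regulator of fat cells, was 2.49-fold higher, from 278 and 416.5 to 744.4 and 962, and Nampt, which makes NAD precursors, 2.64-fold. Acvr1c was 2.23-fold, Cidea, of the lipid droplet, 2.01-fold and Plin4 1.74-fold higher. None of the 19 was called against the milder pools, since Pparg stood at log2 signals of 8.41 in control but 9.23, 9.58, 9.69 and 9.73 in the restricted pools.

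Other cells of the tissue showed small or mixed differences, where 9.56% of all genes were called higher and 11.6% lower. Endothelial Pecam1 and Kdr differed by -0.09 and 0.04, and of 16 endothelial genes 3 were higher and 2 lower. Gpihbp1, which carries lipoprotein lipase onto capillaries, was 2.71-fold higher, from 227.3 and 306.5 to 608.8 and 843.2, whereas Plvap was lower as given above. Of 8 mesothelial genes 3 were higher, among them Krt19 (1.99-fold) and Msln (1.76-fold), and 2 lower, with Slpi, a protease inhibitor, 8.95-fold lower from 921.3 and 1088 to 92.9 and 134.9. At 1 month Slpi stood at log2 signals of 10.19, 9.89, 6.64, 6.51 and 8.73 from control to 30% CR, where Cd3g stood at 8.95, 9.14, 3.88, 4.13 and 7.85, and the part of lymphocytes in its difference was not tested. Of 12 smooth muscle genes 4 were lower and 1 higher. Skeletal muscle, erythroid and mast cell genes, 3, 3 and 2 tested, had no call, and Hbb differed by -0.16.

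Matrix and growth genes differed little as groups, and their counts stand beside 9.56% called higher and 11.6% lower over all genes. Of 41 collagen and matrix genes 3 were higher and 2 lower (median 0.16), the lower ones being Eln, elastin (1.90-fold), and Loxl1, which crosslinks it (1.64-fold). Of 25 insulin and IGF signalling genes 4 were higher and 0 lower, with Grb10, an inhibitor of the insulin receptor, 2.43-fold higher from 121 and 199.3 to 316.6 and 451.4, and Eif4ebp1, which holds back translation, 1.90-fold. Mest, an imprinted gene linked to fat expansion, was 2.23-fold lower, from 812.9 and 1186 to 402.9 and 481.5, and Sgce, also imprinted, 1.76-fold higher. Glycolysis had 2 of 17 higher, Pfkfb3 and Tpi1, and 1 lower, the glucose transporter gene Slc2a1. Of 14 immediate early genes 2 were higher and 2 lower, among them Nr4a1 at a difference of -1.18 (-0.70 with log2(signal + 16), its 30% readings being under the filter signal).

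**Figure D4:**
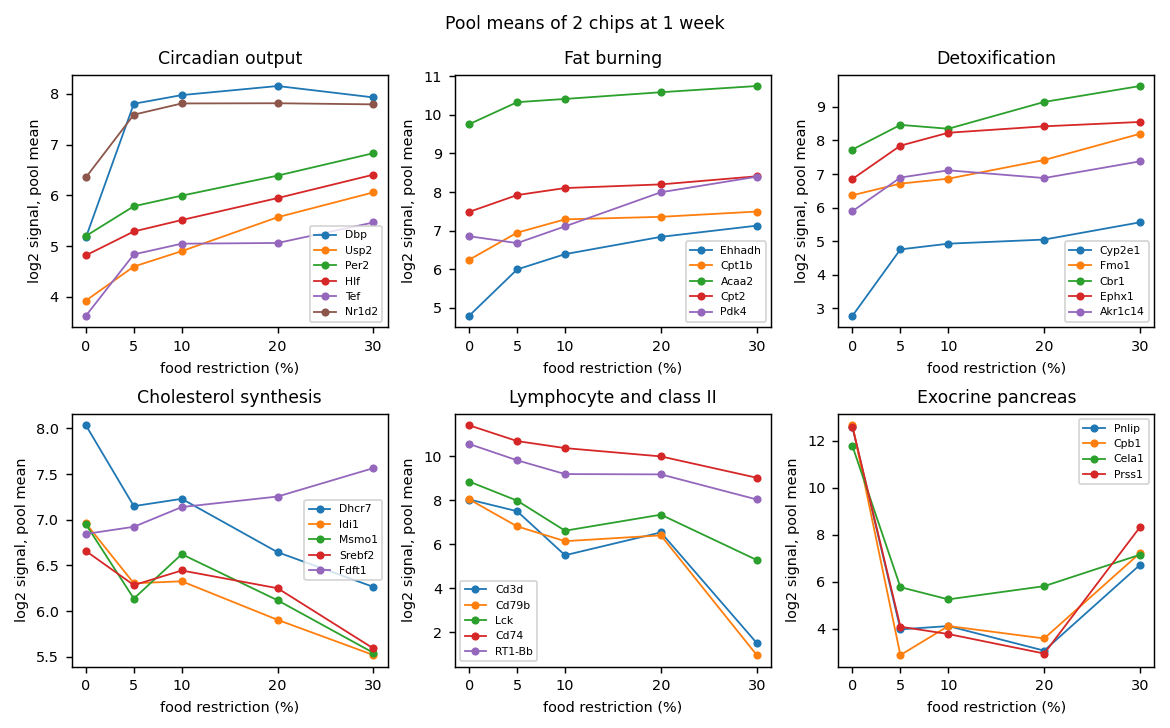
Mean log2 signal of the 2 chips of each pool at 1 week against food restriction in percent (0 is control), for genes of 6 groups, each panel with its own vertical scale. Dbp steps up between control and 5% CR and stays level, Per2 and Usp2 climb to 30% CR, Cd3d drops to 1.5 at 30% CR, and pancreatic transcripts are highest in control and second highest at 30% CR.

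The same contrast in the 1-month pools used other rats. Of the 893 probe sets higher at 1 week, 719 (80.5%) had both chip pairs above control at 1 month and 41 (4.6%) both below, against 30.6% and 39.7% of all tested probe sets. Of the 1120 lower, 920 (82.1%) were below in both pairs and 35 (3.1%) above. Fold calls at 1 month in the same direction numbered 342 (38.3%) and 470 (42.0%), where 5.44% of all probe sets were called higher and 8.07% lower at 1 month. Where the 30% pool was the extreme one of 5 at 1 week, 561 of 653 higher (85.9%) and 777 of 908 lower (85.6%) kept the direction; such calls were 6.86% and 9.54% of all probe sets.

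Sizes at 1 month were close to those at 1 week for some genes and much smaller for others. Atosa differed by 2.11 at 1 month, the brighter Rgs2 probe set by 1.88, Fmo1 by 1.96 and Ehhadh by 1.93. Oxtr and Plvap were further below control at 1 month, at -2.57 and -2.28 against -1.88 and -1.16, though the 1-month pairs of Plvap lay apart, at -1.38 and -3.18. The clock list had a median of 0.67 against 1.44, and ribosomal proteins -0.08 against -0.39. Ggh, at -2.33 at 1 week, differed by 0.00 at 1 month, and the differences between the durations were not tested.

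**Figure D5:**
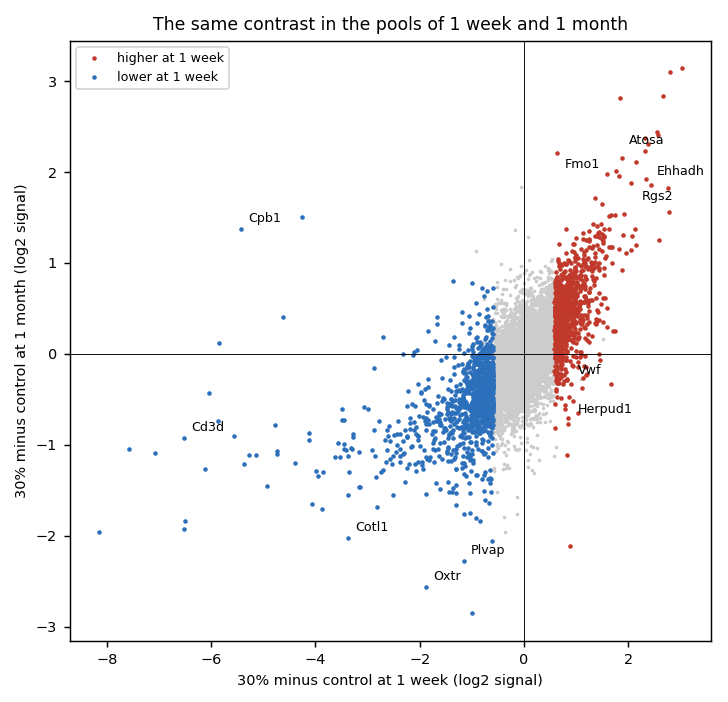
Log2 difference, 30% CR minus control, at 1 week (horizontal) against 1 month (vertical), one point per probe set, red and blue for probe sets called higher and lower at 1 week and grey for the rest. Most red points lie above 0 at 1 month (80.5% in both chip pairs) and most blue points below (82.1%), with pancreatic Cpb1 at -5.43 and 1.37 as an exception.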

How the data were processed

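Adipose tissue RNA of male Wistar rats was measured on 20 chips, 2 for each of 10 pools. The authors deposited MAS5 signals, an intensity per probe set after background correction and scaling within each chip by the Affymetrix software, per the labels and methods; detection calls were not used here. There were 15923 probe sets, including 57 array controls that were dropped. Of the 15866 others, 12783 had 1 symbol in the platform annotation, 312 several and 2771 none. Signals under 1 were set to 1 and log2 taken. The 40th percentile of the mean log2 signal over all 20 chips (a signal of 22.8) was the minimum for testing, which left 9520, 8200 of them with 1 symbol, for 7112 genes, each represented by its brightest probe set. Having 1 pool per group limits the precision, since the 2 chips of a pool are technical repeats.

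A fold call needed both same-numbered chip differences of one sign and a pool difference of at least 1.5-fold. The contrast was fitted with limma 3.58.1 in R 4.3.3 on pool means: the 30% CR and control pools of 1 week had a coefficient each, and the other 8 pools lay on a line in restriction percent within each duration, leaving 4 residual degrees of freedom (eBayes with trend, 2-sided, threshold 0.05). On simulated data of 9520 probe sets it recovered 3.0% of changes of 1 and 60.0% of changes of 2 on the log2 scale, with 3.08% of calls false. There all pools were drawn with the spread of the 1-month pools around their line, without a trend or pancreatic or lymphocyte differences. The 2 pools thus varied like the rest by construction, and the 3.08% is not an error rate for the real calls.

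Genes were named by rule, exocrine pancreas and islet genes left out of its first part: 15 of smallest p in each direction among fold-called genes with the 30% pool highest or lowest of the 5 pools at 1 week, up to 5 fold-called genes of largest difference in each of 40 lists (the 2 largest where none was called), and cell type markers. Further list members given by difference alone were chosen after their values were seen. The comparison, the lists and the rule were chosen with earlier results of these data known. Alternatives were other filters, scalings and offsets, a 2-fold minimum, fits over chips or over the 5 pools at 1 week, leaving out chips or pools, and the milder pools in place of control, the last chosen as a count after seeing the data. Promoters were taken from RefSeq, build GRCr8.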

Additional observations from a re-analysis of the deposited data

Results flagged for a closer look

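In 11 of the 190 named genes, all 11 fold-called at 1 week, both chip pairs pointed the opposite way at 1 month. Among all probe sets called at 1 week this held for 4.6% of the higher and 3.1% of the lower calls. The difference between the durations was not tested. The pancreatic genes Cpb1 (-5.43 at 1 week and 1.37 at 1 month on the log2 scale), Prss1 (-4.26 and 1.5), Cela1 (-4.62 and 0.40) and the islet gene Ins1 (-2.71 and 0.19) were lower in the 30% pool at 1 week and above control at 1 month. The 1-month log2 signals of Cpb1 (3.18 in control and 4.55 in 30% CR) and Prss1 (2.61 and 4.11) lay near or below the signal of 22.8 that set the filter, so these 1-month differences are between dim readings. The contractile genes Actg2 (-1.04 and 0.29) and Cnn1 (-0.71 and 0.69) were also lower at 1 week only. The endothelial genes Vwf, von Willebrand factor (0.83 and -0.28), and Esam, a junction protein (0.63 and -0.24), were above control at 1 week and below at 1 month. The same held for Herpud1 of the endoplasmic reticulum stress response (0.85 and -0.47), Timp1, an inhibitor of matrix proteases (0.62 and -0.30), and Ier3, an immediate early gene (0.59 and -0.23).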

How the results depend on the processing

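The main limit is that each group was 1 pool, so no test of these chips alone was possible. The 2013 fold calls became 4519 without the filter on low values, 1209 with a 60th percentile filter, 642 at 2-fold and 499 with the mean of the 5%, 10% and 20% pools in place of control; using chips of 1 number gave 2087 to 2726. Without the pairing of chips by replicate number (no replicate block) they numbered 1742, and the gaps between chips 1 and 2 correlated between the 2 pools at 0.067, so the numbers share the scale only. The 7 calls of the limma contrast became 13 with log2(signal + 16), 32 without the filter, 4 with the 60th percentile filter, 28 for 30% times the slope over the 5 pools at 1 week, and 649 when the 20 chips were fitted with the replicate block and the pool as a random block. With chips of 1 number they were 5 to 10. Leaving out single pools gave 3 to 106, with 58 without control at 1 month, 106 without 10% CR, 3 without 5% CR and 13 without 30% CR at that time, so its count depended on which pools set the spread. The medians of 38 lists moved by under 1.5-fold under median centring and quantile normalization. With log2(signal + 16) the T and NK cell median went from -3.52 to -2.56 and Ins1, the islet gene tested, from -2.71 to -2.03, and 63 of 190 named genes moved by more than the spread between chip pairs. The share of higher calls with the same sign at 1 month, 80.5%, was 84.1% with median centring and 88.5% with log2(signal + 16). That of lower calls, 82.1%, was 78.7% with median centring, 84.5% with quantile normalization and 90.0% with log2(signal + 16). Against the mean of the milder pools the sign turned for Pnlip (3.0), Cpb1 (3.69), Cela1 (1.54), Prss1 (4.72), Gpm6a (-0.23), Dbp (-0.049), Insr (-0.13), Ccn2 (0.19) and Ier3 (-0.019), and for the median of the exocrine pancreas list (3.0). Pnlip, Cpb1 and Prss1 were below the filter signal in the milder pools, so their sizes and that of the list median are not exact. The cause of the turned signs was not tested.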
